A study of Mus musculus with 6 samples.

Results

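IL-33 and its relatives form the interleukin-1 (IL-1) family, a group of cytokines, many of which raise inflammation when cells are injured or infected. The 9 genes described here were chosen by symbol, and *Il33* was selected on its difference between the groups in the authors' own comparison, which is not used here. They are the cytokine genes *Il33*, *Il1a*, *Il1b* and *Il18*, the receptor genes *Il1rl1*, *Il1r1* and *Il1rap*, and the inhibitor genes *Il1rn* and *Il18bp*. All 9 were found in the deposited table, which lists 19078 genes of mouse fibroblasts.

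RNA was sequenced from 3 libraries of *Ms4a15* OE cells and 3 libraries of control cells. Both are immortalized mouse fibroblasts (MF), which according to the paper's methods descend from embryonic fibroblasts with a conditional *Gpx4* allele and an inducible Cre. *Ms4a15* OE cells are a pooled population in which CRISPR activation raises *Ms4a15* from its own promoter. The control cells have the genotype wild type in the labels, are parental cells in the design text, and carry an empty vector according to the paper. Nothing states that libraries of a group came from separate cultures, and neither age nor treatment is given.

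The guide that defines the *Ms4a15* OE cells is shown because it directs the activation to *Ms4a15*. It was matched to the RefSeq promoter window of *Ms4a15* on GRCm38.p6, chr19:10993361-10993380, reverse strand. The match lies on the strand of the gene, from 130 to 111 bases before the annotated start. It was the single exact match among 32851 promoter windows searched on both strands. Sites with mismatches and sites outside these windows were not searched. The capitals mark the 3 bases next to the match, the PAM that Cas9 needs.
*Ms4a15* OE guide: aaagactgaagcaagggactGGG

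Each value below is the authors' mean over all 6 libraries of counts corrected for library depth, here termed the mean normalized count. It pools both groups, so it shows how strongly a gene was read in these fibroblasts as a whole and not in which group. The other columns of the table hold the authors' comparison of the groups and were not used. No difference between *Ms4a15* OE and control and no test of one is therefore given, and the spread between libraries is not known except for genes of few reads. *Ms4a15* itself had a mean of 637.5 normalized counts, which cannot be split between the groups and so does not check the labels.

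Reads that reach the mean can be followed back where they are few. The libraries were sequenced as paired ends, so a read here is a unit of the authors' count and may stand for a pair. A single read in a single library adds a fixed amount to the mean, and 6 such amounts recurred in the table, 1 for each library. They give size factors, the depth corrections, between 0.887 and 1.14, and the highest was 1.28 times the lowest. With these amounts, 5290 of 5290 genes with a mean under 5 normalized counts could be split into whole reads per library in exactly 1 way. The libraries recovered in this manner carry no name. They are numbered here from 1 to 6 in order of rising size factor, and their group is not known.

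The defining genes of fibroblasts were high. *Col1a2*, which encodes a chain of type I collagen, had a mean of 135155 normalized counts, *Vim*, the gene of the intermediate filament vimentin, 115135 and *Col1a1* 66981. Not all fibroblast markers followed, since *Dcn* had a mean of 12.1 and *Lum*, at 0.675, 4 reads in all. Of 7 immune markers, 5 were found, with means from 5.79 for *Itgam*, an integrin gene of myeloid cells, to 164.2 for *Cd68*, a gene of macrophage lysosomes. The mast cell marker *Mcpt4* had 1 read in all 6 libraries, and *Kit*, *Cpa3* and *Fcer1a* were not found. The 4 epithelial markers had means between 0.176 and 10.9, and the 4 endothelial markers between 1.36 and 106.5. In bulk RNA, fewer cells that express a gene and less RNA per cell cannot be told apart.

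IL-1 family cytokines act through pairs of receptor chains. IL-33 binds ST2, the product of *Il1rl1*, and IL-1α and IL-1β bind the product of *Il1r1*. Both receptors then recruit the shared chain encoded by *Il1rap*, and their intracellular domains call in the adaptor MyD88, IRAK kinases and TRAF6, which lead to NF-κB. IL-33 is stored in the nucleus of barrier and stromal cells and is released on damage, and fibroblasts are well known as cells that respond to IL-1.

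The 9 genes spanned from 0.151 to 3287 normalized counts, and the receptors stood above the cytokines and the inhibitors. Only the 3 receptor genes were above the median of all genes, 236.9 normalized counts. The 4 cytokine genes and the 2 inhibitor genes were all below it. These means pool both groups, so a gene that differs between them, as *Il33* was chosen to, may exceed the median in a group. Of the 9 genes, 8 had a mean of at least 10 normalized counts, as had 12914 of the 19078 genes. The median over the members was 156.8 normalized counts.

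**Figure D1:**
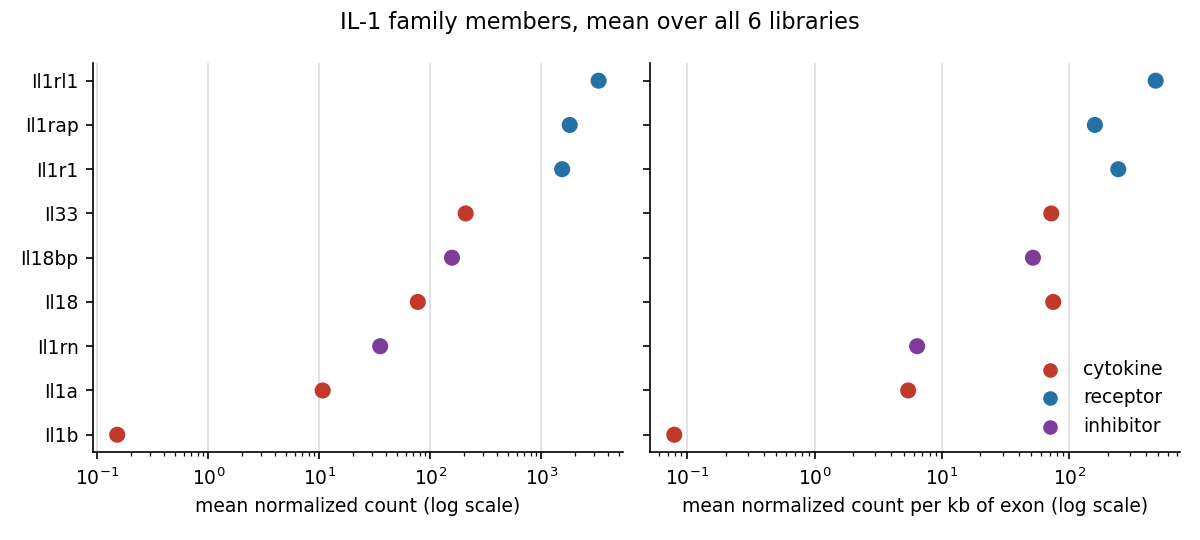
Mean normalized count over all 6 libraries (left) and the same value per kb of exon (right) for the 9 genes, on log axes, with 1 point for each gene coloured by role. The 3 receptor genes lie furthest to the right in both panels, and Il1b, at 0.151 normalized counts, furthest to the left.

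*Il1rl1*, the gene of the IL-33 receptor ST2, had the highest level of the 9. It lies on the forward strand of chromosome 1 of GRCm38 from 40429570 to 40465415 (ENSMUSG00000026069.15). Its mean was 3287 normalized counts, higher than that of 84.2% of the genes, at rank 3009. With the size factors found, this mean corresponds to between 17486 and 22421 reads over the 6 libraries. The gene also gives rise to a short, secreted ST2 that acts as a decoy for IL-33. A value per gene does not tell the secreted form from the membrane form. RefSeq places 2 starts in *Il1rl1*, 10059 bases apart, and the table does not separate transcripts from them either.

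*Il1rap*, the gene of the chain shared by the receptors for IL-1 and IL-33, was next by normalized count. It is on chromosome 16 from 26581704 to 26730117 (ENSMUSG00000022514.14). The mean was 1804 normalized counts, higher than that of 74.1% of the genes. *Il1r1*, the gene of the signalling receptor for IL-1α and IL-1β, lies on chromosome 1 from 40225080 to 40317257 (ENSMUSG00000026072.12). Its mean was 1543 normalized counts, higher than that of 71.5% of the genes. Reads from all 6 libraries that underlie it number between 8206 and 10522.

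Long transcripts collect more reads than short ones, so levels of different genes were compared per kb of exon. The exons of *Il1rap* cover 11.4 kb in GENCODE M21, those of *Il1rl1* 6.89 kb and those of *Il1r1* 6.36 kb. On this scale *Il1rl1* had 476.9 normalized counts per kb, *Il1r1* 242.5 and *Il1rap* 158.8. *Il1rl1* was thus 1.97 times as high as *Il1r1* and 3 times as high as *Il1rap* per kb, and *Il1r1* and *Il1rap* changed places. These lengths join the exons of all transcripts of a gene, and the paper's methods name another annotation, UCSC knownGene, for the counting. The lengths may thus exceed those of the transcripts present, and the ratios per kb depend on them. With no spread between libraries, it is not known whether these neighbours in the order differ.

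*Il33* is on chromosome 19, on the forward strand, from 29925114 to 29960718 (ENSMUSG00000024810.16). It is the gene of the cytokine that ST2 binds. Its mean over both groups was 208.3 normalized counts, at rank 9684 and higher than that of 49.2% of the genes. Between 1108 and 1420 reads underlie this mean. Per kb of exon *Il33* had 72.2 normalized counts, and *Il1rl1* was 6.61 times as high on that scale. This ratio of means over both groups need not hold in either group. RefSeq gives *Il33* 2 starts, 20677 bases apart, which the value per gene again does not separate.

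*Il18*, whose product is made as a precursor and cut by caspase-1, had a mean of 77.1 normalized counts. The gene lies on chromosome 9 from 50554827 to 50581840 (ENSMUSG00000039217.13). Its exons cover only 1.03 kb, so that it reached 74.8 normalized counts per kb. *Il33* was 2.70 times as high as *Il18* by normalized count and 0.965 times per kb. Their order therefore rests on the scale, and both values pool the groups.

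The classical IL-1 cytokines were the lowest members. *Il1a*, the gene of IL-1α, lies on the reverse strand of chromosome 2 from 129299610 to 129309972 (ENSMUSG00000027399.1), and its mean was 10.7 normalized counts. Its mean could be split in 1 way, into 25, 9, 3, 22, 0 and 2 reads in libraries 1 to 6. The 61 reads carry a 95% exact Poisson interval from 46.7 to 78.4, which covers counting error only. Reads were thus present in 5 of 6 libraries, and most of them came from libraries 1, 2 and 4.

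*Il1b*, the gene of IL-1β, is on the same strand of chromosome 2 from 129364570 to 129371139 (ENSMUSG00000027398.13). Its mean was 0.151 normalized counts, which is that of 1 read in library 5 and 0 reads in the other five. The 95% exact Poisson interval of this total is 0.0253 to 5.57 reads. A count of 0 in a library allows up to 3 reads, so at this depth the counts of 0 do not show that *Il1b* was absent. IL-1β is mainly a product of myeloid cells.

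**Figure D2:**
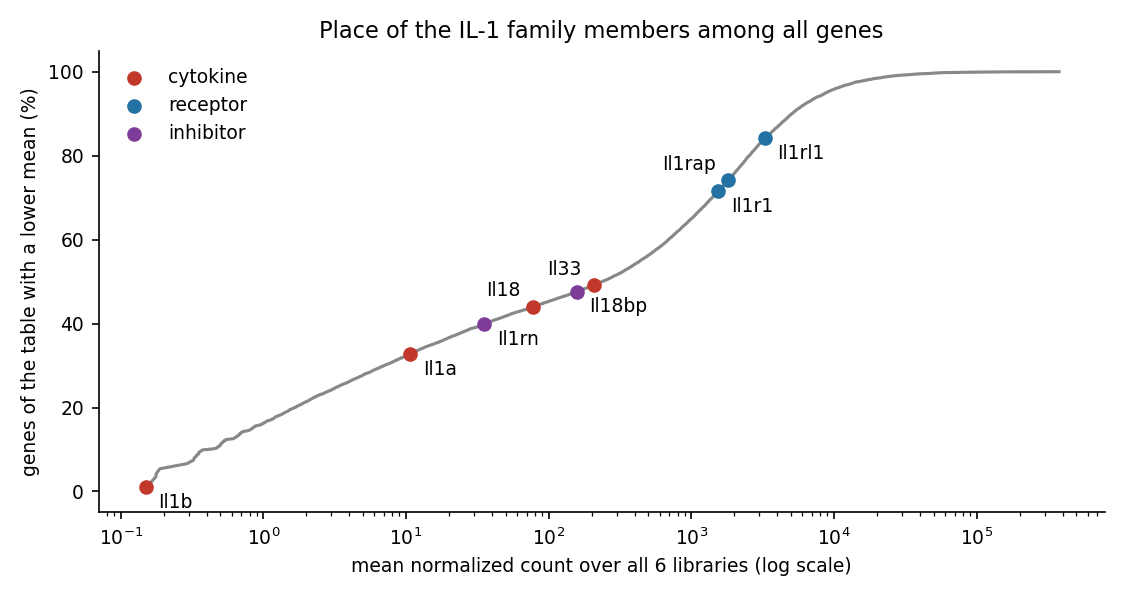
Share of the 19078 genes with a lower mean (percent, vertical axis) against the mean normalized count over all 6 libraries (log axis), with the 9 genes as points on the curve of all genes. The 3 receptors lie between 71.5% and 84.2%, Il33 at 49.2% and Il1b at 1.06%.

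The inhibitors were low to intermediate. *Il1rn* encodes the receptor antagonist, which occupies the IL-1 receptor without starting a signal, and lies on chromosome 2 from 24336853 to 24351494 (ENSMUSG00000026981.15). Its mean was 35.3 normalized counts. Per kb of exon it had 6.39 and *Il1a* 5.43, a ratio of 1.18, whereas by normalized count the ratio was 3.3. *Il18bp* encodes a secreted protein that binds IL-18 and keeps it from its receptor, and lies on chromosome 7 from 102014885 to 102018690 (ENSMUSG00000070427.4). It had a mean of 156.8 normalized counts, which was 2.03 times that of *Il18* by normalized count but 0.693 times per kb.

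Some members share exon bases with a gene on the other strand. Exons of *Il18bp* and *Numa1*, whose mean was 7382 normalized counts, share 80 bases, or 2.64% of the exon bases of *Il18bp*. The antisense gene *Gm20319* shares 552 bases, or 4.86%, with *Il1rap*, *Gm14023* shares 222, or 11.2%, with *Il1a*, and *Il1bos* shares 25, or 1.31%, with *Il1b*. The labels name a stranded library kit, the paper's methods cite another protocol without stating strand, and the strand setting of the counting is not given in the sources used here. What the shared bases add to the levels was not tested.

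Both receptors for IL-1 and IL-33 sit in a row of related genes on chromosome 1. The row holds 6 receptor genes on the forward strand within 478 kb, from 40074079 to 40551705, and levels alternated along it. *Il1r2*, which encodes a decoy receptor for IL-1, had a mean of 5.60 normalized counts. *Il1r1* follows with 1543, *Il1rl2*, the receptor gene for IL-36, with 0.539, and *Il1rl1* with 3287. *Il18r1*, which encodes the chain that binds IL-18, starts after a gap of 136 bases behind the end of *Il1rl1* and had a mean of 1.18 normalized counts. *Il18rap*, the gene of the second IL-18 receptor chain, closes the row with 253.3. Per kb of exon, *Il18rap* was 153 times as high as *Il18r1*, and *Il1rl1* was 12.7 times as high as *Il18rap*.

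**Figure D3:**
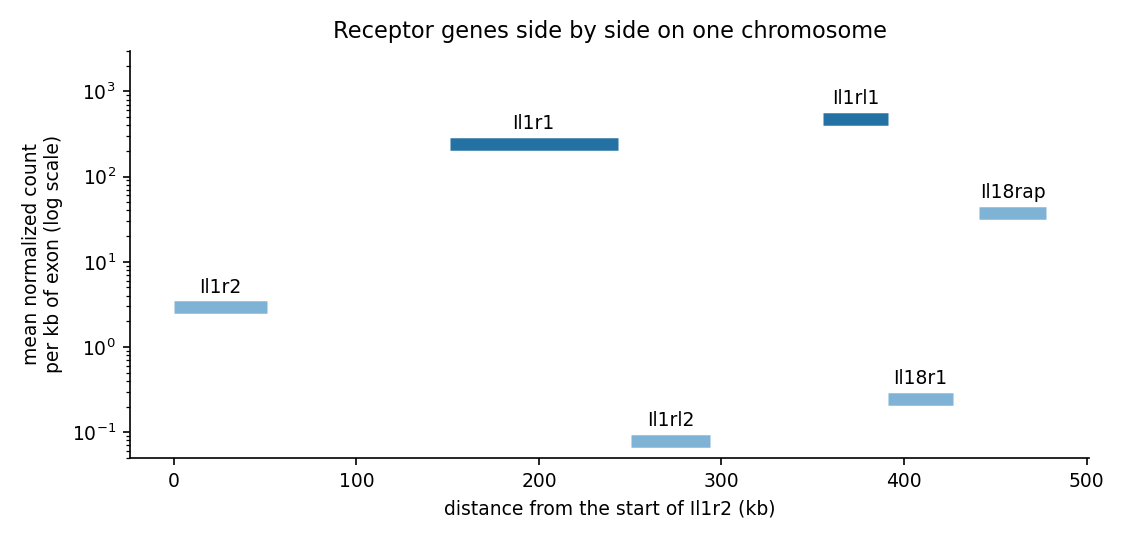
The 6 receptor genes of chromosome 1 drawn to scale as bars along the distance from the start of Il1r2 (kb), at the height of their mean normalized count per kb of exon (log axis). Il1r1 and Il1rl1, in dark blue, stand at 242.5 and 476.9, and Il1rl2 and Il18r1, each next to one of them, at 0.0792 and 0.245.

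The low genes of the row could be read library by library. *Il18r1* had 5 reads in library 3, 2 in library 5 and 0 in the other four, a total of 7 with a 95% exact Poisson interval from 2.81 to 14.4. *Il1rl2* had 2 reads in library 1 and 1 read in library 4. *Il1r2* had 5, 1, 7, 9, 6 and 6 reads in libraries 1 to 6 and was thus seen in all of them. The binding chain of the IL-18 receptor was near the limit of detection, whereas its partner chain was not.

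Of the other 12 genes of the family, 7 were found in the table and 5 were not. The highest was *Sigirr*, whose product dampens signals from IL-1 receptors, with a mean of 937.0 normalized counts and 307.9 per kb of exon. Of the IL-36 cytokines, *Il1f9* (now *Il36g*) had 6, 12, 1, 2, 1 and 4 reads in libraries 1 to 6, a mean of 4.50 normalized counts. *Il1f6* (now *Il36a*) had 1 read, in library 4. In all, 5 of the 7 genes had a mean under 10 normalized counts.

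**Figure D4:**
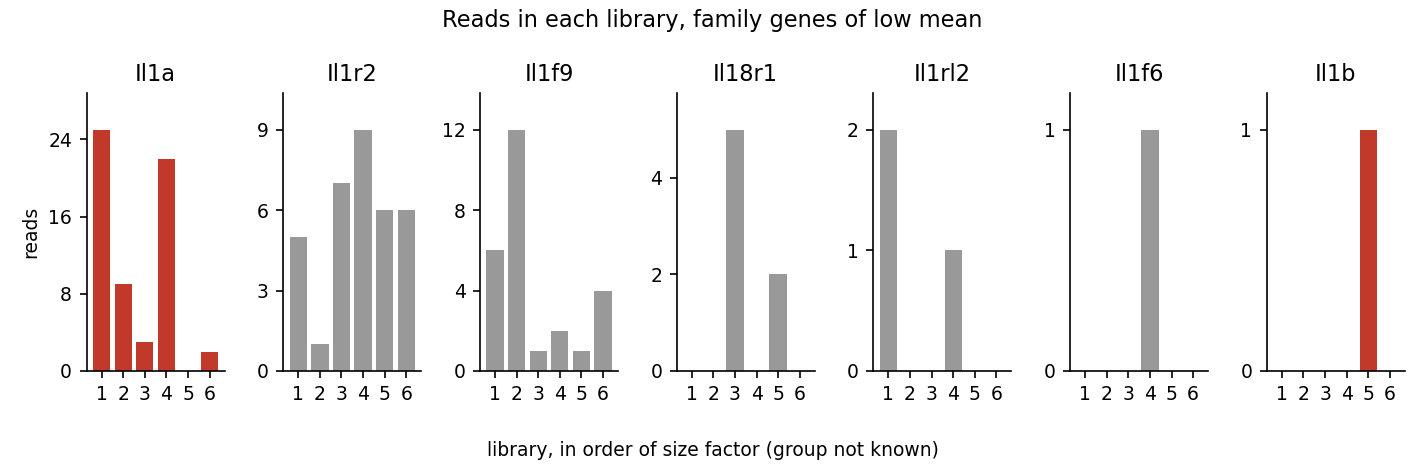
Reads in each of the 6 libraries (horizontal axis, in order of rising size factor, group not known) for the family genes whose mean could be split into whole reads in 1 way, members in red and other genes in grey, each panel with its own vertical scale. Il1a had 25, 9, 3, 22, 0 and 2 reads, and Il1b a single read in library 5.

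Most genes of the signalling chain below the receptors stood above the cytokine genes. Of 22 genes from the adaptor to NF-κB, 21 were found, and 20 of the 21 were above the median of all genes. Their median was 1741 normalized counts, against 236.9 over all genes. By normalized count 20 of the 21 were above *Il33*, the highest cytokine gene on that scale. Of all genes, 49.2% were below *Il33*. Per kb of exon their median was 363.3 normalized counts, against 107.4 over the genes with a length. On this scale 18 of the 21 were above *Il18*, the highest cytokine gene per kb with 74.8, and 46.2% of the genes with a length were below it. *Ikbkb*, *Rel* and *Tnfaip3*, with 8.89, 60.8 and 61.4 per kb, were below *Il18*. The 6 highest signalling genes were *Tab2* with 5242 normalized counts, *Nfkb1* with 4798, *Nfkb2* with 4752, *Map3k7* with 4697, *Chuk* with 3886 and *Tollip* with 3286. These encode a partner and the kinase of the TAK1 complex, precursor subunits of NF-κB, an IκB kinase and an adaptor that restrains IRAK1. *Myd88*, the adaptor that all these receptors need, had 1703 normalized counts, and *Irak4*, the first kinase it recruits, 523.3. *Ikbkb*, at 169.6, was the one gene of the 21 below the median of all genes.

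Genes for the cutting and release of these cytokines varied more. Of 16 genes, 14 were found, with means from 0.310 to 10807 normalized counts and a median of 119.8. *Capn2*, a calpain subunit gene, was the highest with 10807, followed by *Aim2*, a DNA sensor, with 3123, *Capn1* with 2545 and *Casp8* with 2344. *Gsdmd*, whose product forms the pore through which IL-1β leaves the cell, had 1056 and *Ninj1*, whose product tears dying cells open, 838.0. *Casp1*, the gene of the enzyme that cuts the precursors of IL-1β and IL-18, was lower with 97.9 normalized counts. *Nlrp3*, the sensor gene of the best known inflammasome, had a mean of 10.9, and *Nlrc4* 2 reads in all.

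Genes that fibroblasts are known to raise on IL-1 ranged widely as well. All 14 were found, with means from 0.814 to 9004 normalized counts, and 6 of the 14 were above the median of all genes. *Ptgs2*, which encodes cyclooxygenase-2, had 9004 normalized counts, the chemokine genes *Ccl2*, *Cxcl1* and *Ccl7* had 4641, 1366 and 1038, *Lif* 800.3 and *Lcn2* 292.5. Others were close to absent. *Cxcl5* had 5 reads, 1 in each of 5 libraries, and *Csf2*, *Cxcl2* and *Csf3* had 15, 16 and 27 reads over the 6 libraries. These levels do not tell whether IL-1 or IL-33 acted on the cells.

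**Figure D5:**
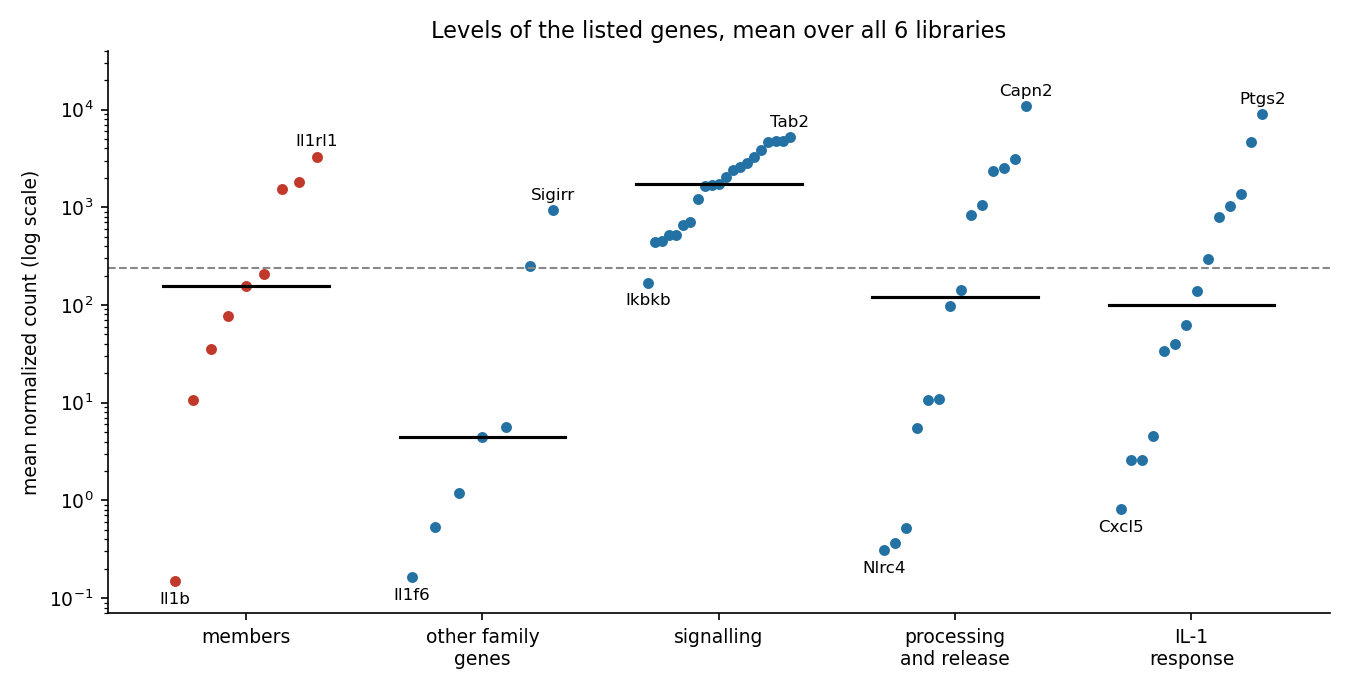
Mean normalized count over all 6 libraries (log axis) of the 9 members and of the genes found in each of the 4 lists, with 1 point for each gene, a bar at each list's median and a dashed line at the median of all genes, 236.9. The median of the signalling genes, 1741, lies above the dashed line, and those of the other lists and of the members lie below it.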

How the data were processed

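Poly(A)-selected RNA of 6 libraries was sequenced as paired ends. According to the paper's methods, the authors aligned reads with STAR to mm10 and the UCSC knownGene annotation, counted them with HTSeq-count and compared groups with DESeq2; the submitters' processing notes also list TopHat, Cufflinks and Cuffdiff. The deposited signal averages, per gene, the depth-corrected counts of all 6 libraries. The remaining columns hold the authors' log2 fold changes, standard errors, p-values, adjusted p-values and direction, and were not used. The tests planned on single libraries were therefore not run, and library totals are not known. Of the symbols, 25 had turned into dates.

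Reads were recovered by solving each mean for 6 whole numbers, within 1e-09 normalized counts for means under 10 and 6e-09 from 10. Genes with several solutions were given no reads. The step was tested on simulated data for the means of these libraries, where 482 of 500 genes had a single solution, the true one for 482. Most of the 500 had a mean under 5 normalized counts, whereas *Il1a*, *Nlrp1a*, *Nlrp3* and *Ptprc* had means above 10. Exon lengths are unions of GENCODE M21 exons (GRCm38), found for 16548 genes (86.7%), partly through older symbols in RefSeq. The promoter window is from RefSeq (GRCm38.p6).

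Members and lists were chosen with earlier results of these data known. An immune marker of the fixed list is not reported here. Named were all members, up to 6 of the highest genes in each list, and receptors and adaptors on which the role of a member turns. *Irak4*, *Casp1*, *Nlrc4*, *Nlrp3*, *Nlrp1a*, *Dfna5*, *Ptprc*, *Ikbkb*, *Rel*, *Tnfaip3*, *Cxcl5*, *Csf2*, *Cxcl2* and *Csf3* were named after their values were seen. Computations used Python 3.11.15, numpy 2.4.6, pandas 2.3.3, scipy 1.17.1 and matplotlib 3.10.9.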

Additional observations from a re-analysis of the deposited data

How the results depend on the processing

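The number of members above the median gene was 3 of 9 by normalized count, per kb of exon, and over the genes whose mean reached 10 normalized counts. A share of the sum of all means leaves every rank as it is, so this alternative could not change the number. Per kb, 7 members moved down among all genes and 2 moved up, by between -18.9 and 3.88 percentage points, and *Il18* passed *Il33* and *Il18bp*. Over the 12914 genes whose mean reached 10, all 8 members that remain stood lower, as the lowest genes were left out. The changes lay between -32.1 and -7.5 percentage points. *Il33* was above 25% of these genes, against 49.2% of all genes. Other tests, normalizations and pseudocounts and leaving out each replicate were planned and not run, since they need values of named libraries. No paired analysis was possible because the column used pools all libraries.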

Other observations

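The reads of 26 listed genes of low mean could be followed into the 6 libraries. In 5 of them every value of libraries 1, 2 and 4 was above every value of libraries 3, 5 and 6. These were *Il1a*, with 25, 9, 3, 22, 0 and 2 reads in libraries 1 to 6, *Nlrp3*, with 18, 21, 2, 20, 1 and 0, *Nlrp1a*, with 17, 23, 1, 15, 4 and 1, *Dfna5*, now *Gsdme*, with 9, 10, 0, 10, 1 and 2, and *Csf2*, with 3, 5, 0, 6, 1 and 0. In 1 gene, the leukocyte marker *Ptprc*, the order was the opposite, with 7, 9, 16, 5, 11 and 20 reads. In the other 20 genes the values overlapped, as for *Il1r2*, with 5, 1, 7, 9, 6 and 6 reads. Some of these 20, such as *Il1b* with 1 read and *Nlrc4* with 2, had too few reads to divide in this way. The division of the libraries was noticed in *Il1a* after its values were seen, the libraries carry no group, and no test was run. *Il1a* is thus among the 5 by choice, and the reads are not corrected for depth. How many of all genes of low mean divide in the same way was not counted. The division can therefore not be read as particular to the listed genes.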
